A study of Oncorhynchus mykiss with 6 samples.

Results

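The myosin heavy and light chains of rainbow trout (Oncorhynchus mykiss) are described here in dorsal skin of a yellow mutant at 90 days and at 1 day of age. They are 113 of the 43862 gene rows of the deposited table. A row was taken when its symbol began with MYH or MYL and a digit, was MYLPF or MYHFAST, or when its product name held the words for a myosin heavy or light chain. Symbols alone or together with product names gave 103 of them, and product names alone gave 10. Kinases and phosphatases of myosin, 10 rows, were left out, and 8 rows named as a numbered myosin fell outside these rules. Of the 113 rows, 89 are heavy chains and 24 are light chains. Copies that share a symbol are told apart by the NCBI gene number of the table, and 15 rows are assembled loci outside the annotation, named MSTRG. RNA was sequenced from 3 libraries at day 90 and 3 at day 1, all of the same yellow mutant, with no fish of another colour among the samples analysed here. The ages are the sole difference the labels give, in a series set up to look for genes behind skin colour as the fish develop. No label says whether the libraries of an age come from separate fish, so a p-value reflects the spread between these libraries, which may be technical. In such bulk tissue, fewer cells of a type and less RNA per cell cannot be told apart.

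Conventional myosin is the motor that pulls on actin. Its heavy chains carry the motor head and a long tail that packs into filaments, and each heavy chain neck binds an essential light chain and a regulatory light chain. Fast and slow skeletal fibres, heart, smooth muscle and non-muscle cells use different sets of these genes, and fishes carry many fast heavy chain genes, often side by side, some of which are used at particular stages of growth. Under the skin of a fish the thin slow muscle layer lies outside the fast muscle that makes up most of the trunk.

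Classes follow the product name first and the symbol second. The slow class holds the rows whose product name is myosin-7, a heavy chain that in mammals is found in slow fibres and the ventricle. No product name of a member used the word slow. Most rows of the slow class carry the symbol Myh6, so here the symbol and the product name differ. The product names of 29 members would not have selected them.

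Total counts ran from 16157312 to 18960866 per library. The myosin rows took 1.37%, 0.665% and 0.670% of the counts of the 3 day 90 libraries, against 2.26%, 2.22% and 2.75% at day 1. Replicate 1 of day 90 stood apart from replicates 2 and 3 of that age. Its summed FPKM (fragments scaled to transcript length and to the size of the library) of fast heavy chains was 3.73 times the mean of the other two, and that of fast light chains 3.81 times. The ratio was 1.63 for cardiac-named light chains and 1.27 for the slow class, but between 0.885 and 0.989 for the non-muscle and smooth muscle chains. Of 46 tested fast rows, 44 were highest in replicate 1 among the day 90 libraries. Other genes moved with it: the rows of a list of fast muscle markers that are not myosins summed to 4387, 1265 and 1266 FPKM in replicates 1, 2 and 3 of day 90, against 8890, 9032 and 10782 FPKM at day 1. How much muscle lay in each dissected piece was not tested. For rows described below where leaving replicate 1 out changes a call or a sign, the value without it is given too.

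Day 1 libraries also held transcripts of organs other than skin and muscle. Of 34 tested rows of an eye list, 33 were lower at day 90, as were 21 of 23 liver rows and 28 of 35 neural rows. Of 42 tested rows of dermal fibroblasts and scales 35 were higher at day 90, as were 50 of 71 epidermal rows and 13 of 22 pigment cell rows. By the same test, described below, 32.5% of all genes tested were higher and 35.4% lower. The neural list still summed to 375 to 441 FPKM at day 90 (1124 to 1262 FPKM at day 1). The liver list summed to 130 to 146 FPKM at day 90 (625 to 1144 FPKM at day 1). The part of these tissues in the myosin values was not tested.

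A gene was tested with edgeR's quasi-likelihood test on the counts when 3 or more of the 6 libraries gave it an FPKM of 1 or higher. That left 86 myosin rows, and the 27 others averaged at most 3.11 FPKM at day 90 and at most 1.16 FPKM at day 1. At a Benjamini-Hochberg adjusted p of 0.05 over all 29436 genes tested, 32 myosin rows were higher at day 90 and 38 were lower, while 16 did not pass. Of all genes tested 67.9% passed, 32.5% as higher and 35.4% as lower, so the ages differed in most of the transcriptome and a call alone sets no myosin apart. All libraries of day 90 lay above all of day 1 for 26 myosin rows and below them for 40. Over all genes tested, 75.2% did not overlap in this way, 22.3% above and 52.9% below. The median log2 fold change was -0.01 over the myosin rows and -0.03 over all genes. The fitted fold changes are scaled by trimmed mean factors (TMM), whereas FPKM is scaled to the library alone. For this reason a fold change read from the FPKM values is lower than the fitted one. The log2 value of the authors' deposited table minus the fitted one had a median of -0.41 over the myosin rows. Without replicate 1 of day 90, 29 myosin rows were higher and 44 were lower. With scaling to the epidermal genes, so that their median ratio between libraries is even, 13 were higher and 55 lower, 5 of them higher with TMM. The median of all genes moved to -1.44, with 1853 genes higher and 24216 lower.

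The make-up of the myosin transcripts differed between the ages. Fast heavy chains were 63.2%, 32.6% and 31.9% of the summed heavy chain FPKM in replicates 1, 2 and 3 of day 90, against 89.1%, 88.3% and 91.2% at day 1. Every day 90 library lay below every day 1 library, with replicate 1 nearest to day 1. The mean share was 42.6 ± 17.9% at day 90 and 89.5 ± 1.51% at day 1 (SD, n = 3 each). The slow class gave 16.0%, 22.7% and 25.0% of the heavy chain FPKM at day 90 and 1.84%, 1.83% and 1.78% at day 1. Non-muscle heavy chains gave 17.6%, 38.1% and 37.5% at day 90, against 6.92%, 7.48% and 5.26% at day 1. Shares within a library do not depend on the scaling between libraries, but a share can grow because another class shrank.

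Light chains had a like make-up. Fast light chains were 62.3%, 37.4% and 34.6% of the light chain FPKM at day 90, against 89.4%, 90.0% and 91.5% at day 1, or 44.8 ± 15.2% at day 90 and 90.3 ± 1.09% at day 1 (SD, n = 3 each). Cardiac-named light chains made up 23.2%, 29.6% and 33.2% at day 90 and 2.76%, 2.50% and 2.56% at day 1. The groups did not overlap for either class. No test was made of these shares, because the members were chosen with earlier results known.

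**Figure D1:**
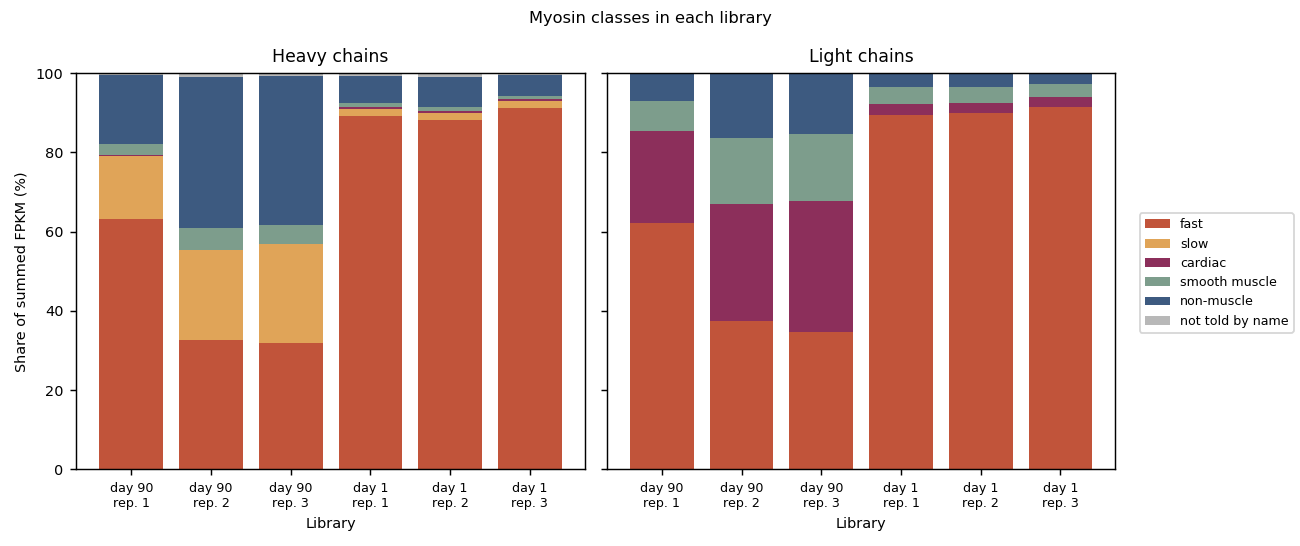
Share of the summed FPKM (%) of heavy chains (left) and light chains (right) that each myosin class held in each of the 3 day 90 and 3 day 1 libraries, as stacked bars. Fast chains held 63.2%, 32.6% and 31.9% of heavy chain FPKM at day 90, with replicate 1 the highest, and 88.3% to 91.2% at day 1.

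By class, the tested fast heavy chains numbered 40, of which 10 were higher at day 90, 24 were lower and 6 did not pass, with a median log2 fold change of -2.72. Of the 6 fast light chains 4 were lower and 2 did not pass. Of 6 tested rows of the slow class 4 were higher and 1 was lower. The 10 cardiac-named light chains split into 4 higher and 4 lower, and the 4 non-muscle light chains were all higher. Non-muscle heavy chains gave 6 higher and 2 lower of 11. With the epidermal scaling these counts were 2 higher and 8 lower, and of the non-muscle light chains 0 were higher and 1 was lower. With TMM, 32.5% of all genes tested were higher and 35.4% lower, so that 67.9% passed. With the epidermal scaling 1853 of all 29436 genes tested were higher and 24216 were lower.

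**Figure D2:**
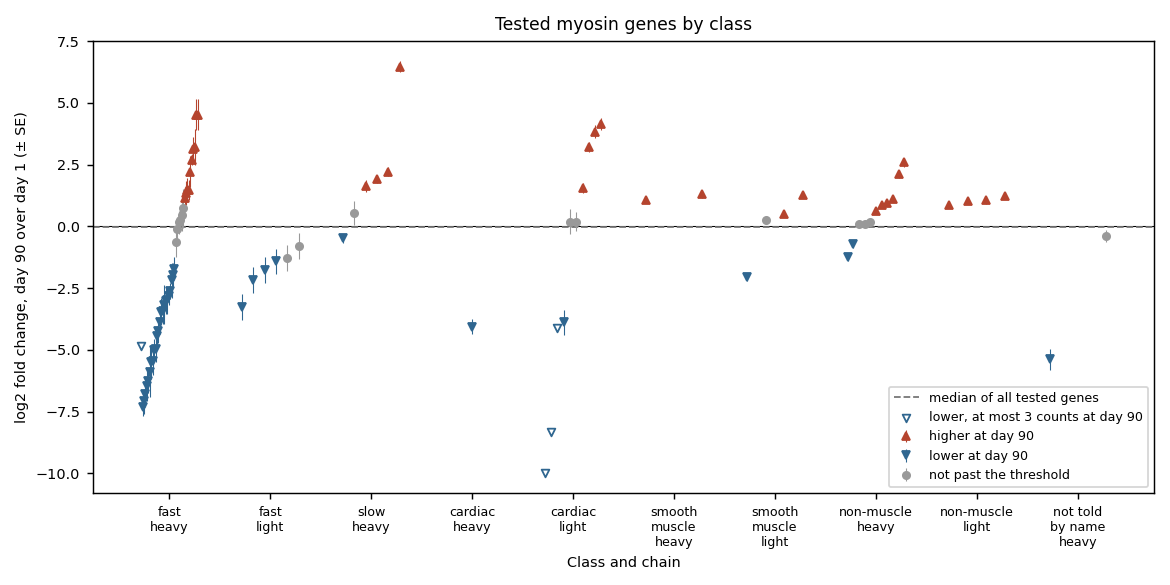
Log2 fold change of day 90 over day 1 of the 86 tested myosin rows by class and chain, with bars for the standard error. Upward triangles are higher at day 90, downward triangles lower, grey circles did not pass, and open triangles are rows with at most 3 counts at day 90, drawn without error at their count ratio or its bound; fast heavy chains range on both sides of 0.

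Fast heavy chains drive the power stroke of white trunk muscle. Their summed level was 487, 124 and 138 FPKM at day 90, against 1397, 1223 and 1687 FPKM at day 1. Of the 58 rows 42 carry the symbol MYH4, a heavy chain of fast fibres in mammals. Many of the most abundant copies of day 1 were close to absent at day 90. MYH4 110518968 had 1.41, 0.54 and 0.38 FPKM at day 90, against 137, 116 and 171 FPKM at day 1. Its log2 fold change was -7.08 ± 0.52 (SE), with an adjusted p of 2.45e-06 by edgeR. MYH4 110513670 had 1.60, 0.30 and 0.94 FPKM at day 90, against 138, 130 and 152 FPKM at day 1 (log2 -6.80 ± 0.53, edgeR adjusted p = 3.78e-06). Each day 90 library lay far below each day 1 library for both copies. MYH4 110517148 had 0.34, 0.22 and 0.13 FPKM at day 90 and 43.5, 37.8 and 67.1 FPKM at day 1. Its log2 fold change of -7.30 ± 0.39 had the smallest adjusted p of the fast heavy chains that fell (edgeR, 3.54e-07). The row with the symbol MYH6 and gene number 118966736, whose product name is that of a fast heavy chain, had no count at day 90 and 117 counts at day 1. It was at least 28.7-fold lower at day 90, against a floor of 3 counts over the age.

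The leading copy of day 1 fell less. MYH4 110487199 had 40.0, 12.2 and 9.67 FPKM at day 90, against 225, 187 and 258 FPKM at day 1. The groups did not overlap, and the log2 fold change was -3.01 ± 0.53 (edgeR adjusted p = 0.000699), or -4.03 ± 0.21 without replicate 1 of day 90. It held 15.5% of the fast heavy chain FPKM of day 1, where it averaged 223 ± 35.6 FPKM (SD, n = 3). Below it lay 110518968 at 141 ± 27.8, 110513670 at 140 ± 10.98, 110510632 at 130 ± 39.5 and 110515411 at 125 ± 25.5 FPKM, neighbours in order whose SDs overlap with each other but not with that of the leading copy. Copies 110510632 and 110515411 averaged 3.15 and 2.17 FPKM at day 90 and had log2 fold changes of -4.95 ± 0.54 and -5.43 ± 0.58. The 24 fast heavy chains that fell ranged in log2 fold change up to -1.71 ± 0.47, that of MYH4 110495038, with 38.9, 11.05 and 12.6 FPKM at day 90 and 82.5, 77.6 and 113 FPKM at day 1. Without replicate 1 of day 90 it was at -2.62.

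Another set of fast heavy chains was higher at day 90. MYH4 110513340 was the most abundant fast heavy chain of that age, with 25.8% of its fast heavy chain FPKM. It had 140.5, 30.1 and 22.6 FPKM at day 90, against 19.7, 15.7 and 20.6 FPKM at day 1. All day 90 libraries lay above those of day 1, but replicate 1 was far above the other two. The log2 fold change was 2.22 ± 0.63 (edgeR adjusted p = 0.0114), and 0.83 ± 0.16 without that replicate (edgeR adjusted p = 0.00147). With the epidermal scaling it was at 0.91 and did not pass (edgeR adjusted p = 0.197). The next copies at day 90, 110495038 at 20.8 ± 15.6 FPKM and 110487199 at 20.6 ± 16.8 FPKM (SD, n = 3 each), were both lower than at day 1 and did not differ from each other beyond their spread.

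MYH1B 110523342, named after a fast skeletal heavy chain of the chicken, did not follow replicate 1. It had 3.46, 3.16 and 2.37 FPKM at day 90, against 0.63, 0.45 and 0.72 FPKM at day 1 (log2 2.70 ± 0.23, edgeR adjusted p = 6.99e-06). The day 90 libraries were all above those of day 1 and close to each other. MYH4 110494893 had 10.1, 2.32 and 6.41 FPKM at day 90, against 0.82, 0.79 and 1.26 FPKM at day 1, without overlap (log2 3.12 ± 0.50, edgeR adjusted p = 0.000386).

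MYH4 110495028 and MYH4 110517024 carried identical counts in each library, as did 52 of the 33591 rows of the whole table with at least 100 counts. They amount to 1 measurement, but both rows enter the counts of rows, the summed FPKM and the shares given for fast heavy chains. Both had 30.6, 5.95 and 8.42 FPKM at day 90 and 0.89, 0.87 and 0.86 FPKM at day 1. The day 90 libraries lay above those of day 1, and the log2 fold change was 4.52 ± 0.63 (edgeR adjusted p = 0.000164), or 3.36 ± 0.16 without replicate 1 of day 90. How the counting assigned reads that match several near-identical copies is not stated in the labels or files, so the split of reads among copies of the MYH4 rows is uncertain.

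Some calls among the fast heavy chains rested on replicate 1 of day 90. Without it, MYH4 110519048, 110513509 and 110513778, which had log2 fold changes of 1.16, 1.35 and 1.46, were at 0.40, 0.50 and 0.60 and no longer passed (edgeR adjusted p = 0.177, 0.136 and 0.0688). MYH4 110509125 was at -0.62 with all libraries and at -1.99 without that replicate, where it passed (edgeR adjusted p = 0.00103). MYH4 110530826 changed sign, with a log2 fold change of 0.72 over all libraries, which did not pass, and of -1.30 without replicate 1 (edgeR adjusted p = 0.0018). Myh4 110513772 was at -0.11 with all libraries and at -1.07 without it (edgeR adjusted p = 0.000418). Without replicate 1 the fast heavy chains counted 7 higher and 27 lower of 40, and with the epidermal scaling 5 higher and 28 lower. Over all 29436 genes tested, 9242 were higher and 10627 lower without that replicate. The epidermal scaling gave 1853 genes higher and 24216 lower.

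**Figure D3:**
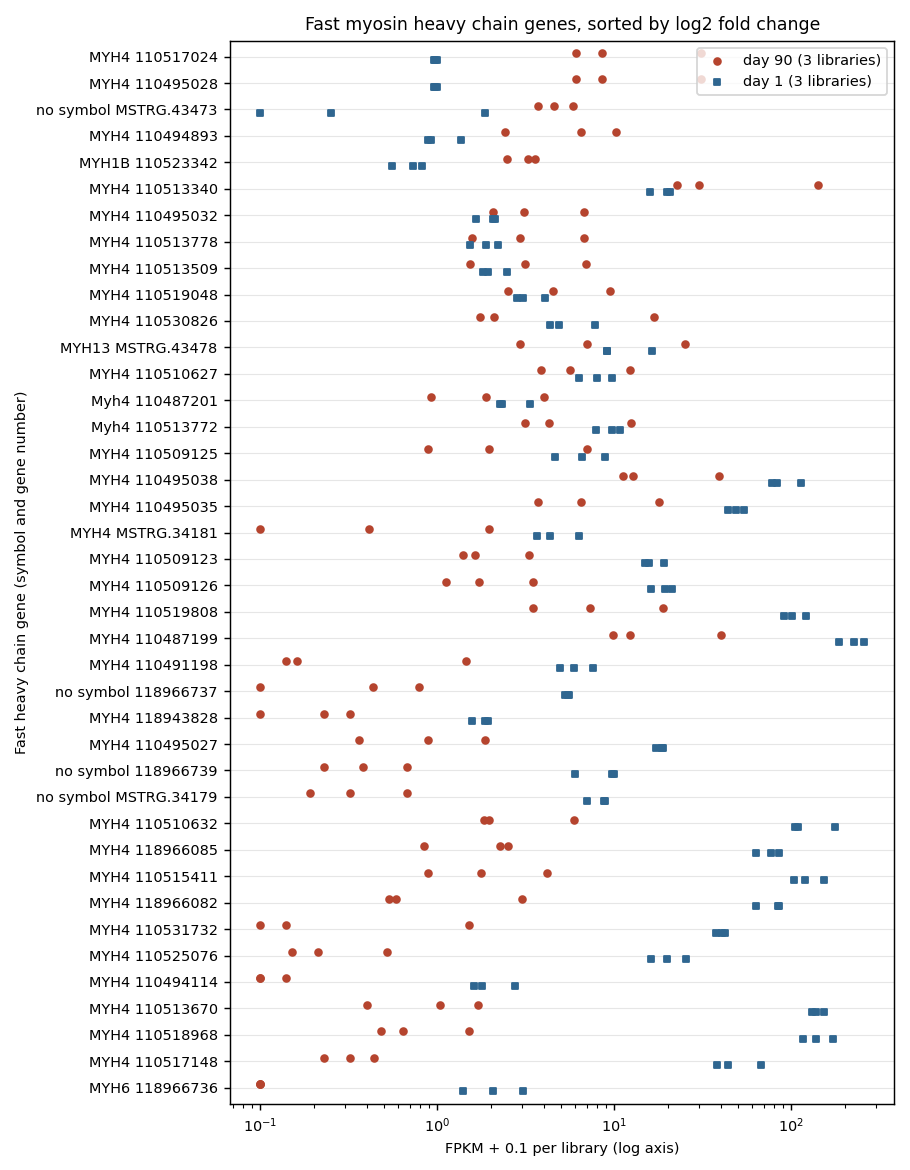
FPKM + 0.1 (log axis) of the 40 tested fast heavy chain rows in each of the 3 day 90 libraries (red circles) and 3 day 1 libraries (blue squares), sorted by log2 fold change. Copies such as MYH4 110518968 lie near 1 FPKM at day 90 and above 100 FPKM at day 1, and MYH4 110495028 shows the opposite order.

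Both directions occurred among long rows, while among short rows a single tested row was higher. The length of a row was worked out from its count and FPKM, and 37 of the 58 fast heavy rows came out at 5400 to 6200 bases, near that of a whole heavy chain transcript. Another 19 were shorter than 3000 bases, down to 232. Of the 32 tested long rows 9 were higher, 18 lower and 5 did not pass. Of the 8 tested short rows 1 was higher, 6 were lower and 1 did not pass. Over all genes tested, 32.5% were higher and 35.4% lower. The higher short row was MSTRG.43473, at 293 bases and partial by product name, with 71 counts at day 90 and 10 at day 1.

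The place of the genes was read from the RefSeq gene table of assembly USDA_OmykA_1.1, used for neighbour relations alone since the build behind the counts is not stated. All 98 members with an NCBI gene number were found there. Members with at most 2 protein-coding genes between them were joined into runs, which gave 12 runs with 44 members. The longest run held 10 fast heavy chains with no other protein-coding gene between them, and 8 of its rows were lower at day 90 while 2 were not tested. It held MYH4 110518968, 110515411 and 110519808, which are among the most abundant copies of day 1. In it the tested rows with counts at both ages lay between -2.99 and -7.08 on the log2 scale. Rows 118966736, 118966737, 118966738, 118966739 and 110513773 of this run were short, at 1050, 467, 702, 465 and 2968 bases by count and FPKM. A run of 3 was lower throughout, among them MYH4 110517148.

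Other runs held copies of opposite direction side by side. In a run of 5, MYH4 110495027 had a log2 fold change of -3.88 ± 0.47 and its next neighbour 110495028 one of 4.52 ± 0.63, or 3.36 without replicate 1 of day 90. The counts of 110495028 are those of 110517024 too, which lies in no run, so this value cannot be placed at 1 of the loci. The row 110513340, the leading copy of day 90, came next in it with 2.22. In another run of 5 the order along the chromosome was 1.46, 1.48, 0.26, -1.71 and -4.95, with the copy in the middle, MYH4 110510627, not passing. Without replicate 1 of day 90 the same order read 0.60, 0.75, -0.45, -2.62 and -5.86, and the copy at 0.60 no longer passed (edgeR adjusted p = 0.0688). The higher copies of this run, MYH4 110513778 and 110495032, overlapped between ages. With the epidermal scaling they were at 0.11 and 0.12 and did not pass (edgeR adjusted p = 0.845 and 0.793). In a run of 4, MYH4 110513670 at -6.80 lay beside 110513509 at 1.35, whose call was lost without replicate 1 of day 90 (0.50) and with the epidermal scaling (-0.02). The slow class had a run of 4, in which Myh6 110489782 was higher, MYH7 100136149 did not pass and 2 rows were not tested. A pair of neighbouring slow rows, Myh6 110535214 and Myh6 100135901, was higher in both.

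**Figure D4:**
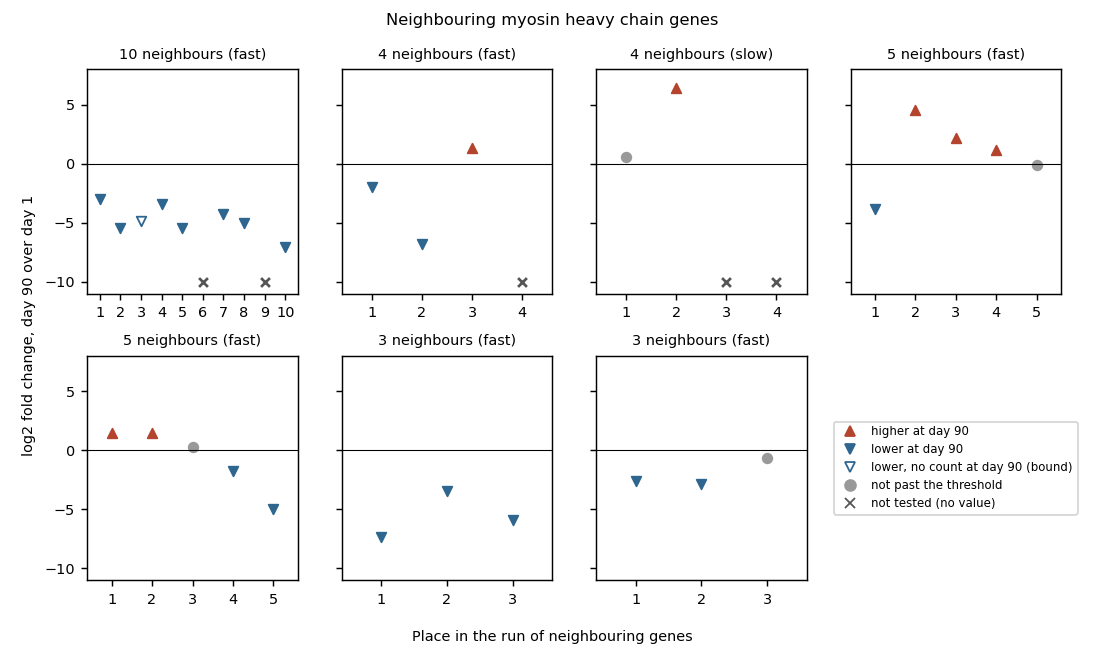
Log2 fold change of day 90 over day 1 by place along each run of at least 3 neighbouring myosin heavy chain genes. Filled upward triangles are higher, downward triangles lower, grey circles did not pass, the open triangle is the row without counts at day 90 at its bound, and crosses at the bottom were not tested; the tested rows of the run of 10 lie below 0, whereas the runs of 5 hold both directions.

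Fast light chains were the most abundant myosins of either age, at 5266, 1473 and 1293 summed FPKM at day 90 and 10218, 10841 and 13098 summed FPKM at day 1. MYLPF, the regulatory light chain of fast skeletal muscle, led at both ages. MYLPF 100136718 had 1988, 560 and 469 FPKM at day 90, against 4138, 4545 and 5188 FPKM at day 1. Its day 90 libraries all lay below those of day 1, replicate 1 the least (log2 -1.78 ± 0.52, edgeR adjusted p = 0.0126; -2.84 ± 0.19 without replicate 1). MYLPF 118936245 had 1224, 340 and 342 FPKM at day 90 and 2053, 2139 and 2636 FPKM at day 1 (log2 -1.42 ± 0.49, edgeR adjusted p = 0.0271; -2.41 ± 0.18 without replicate 1).

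The essential light chains of fast muscle, myl1, differed by type. In mammals the gene gives a long form, LC1, and a short form, LC3; here the product names of 2 rows are those of LC1 and of 2 rows those of LC3. The LC1 row myl1 100135947 had 186, 56.6 and 46.6 FPKM at day 90, against 1101, 1136 and 1452 FPKM at day 1 (log2 -3.25 ± 0.52, edgeR adjusted p = 0.000421). The LC1 row myl1 110501785 had 398, 113 and 93.8 FPKM at day 90, against 1093, 1149 and 1398 FPKM at day 1 (log2 -2.17 ± 0.52, edgeR adjusted p = 0.00474). For both LC1 rows the ages did not overlap, and without replicate 1 of day 90 their log2 fold changes were -4.25 and -3.22.

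The LC3 rows did not pass the test. The row myl1 118936256 had 685, 168 and 166 FPKM at day 90 and 1090, 1055 and 1190 FPKM at day 1 (log2 -1.28 ± 0.52, edgeR adjusted p = 0.0521), without overlap. The row myl1 100135948 had 785, 234 and 175 FPKM at day 90 and 743, 815 and 1234 FPKM at day 1 (log2 -0.81 ± 0.53, edgeR adjusted p = 0.201), with replicate 1 of day 90 inside the day 1 range. Without that replicate they fell too, by 2.41 and 1.86 on the log2 scale (edgeR adjusted p = 4.36e-07 and 0.000115).

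The rows named as LC1 held 28.4%, 29.7% and 29.2% of the myl1 FPKM in replicates 1, 2 and 3 of day 90, against 54.5%, 55.0% and 54.0% at day 1. Replicate 1 of day 90 did not stand apart in this share, and the groups lay far from each other, at 29.1 ± 0.63% at day 90 and 54.5 ± 0.47% at day 1 (SD, n = 3 each, no test).

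In the slow class the summed level was 123, 86.0 and 108 FPKM at day 90, against 28.9, 25.3 and 32.9 FPKM at day 1. Myh6 110489782, a myosin-7 by product name, was nearly silent at day 1. It had 25.7, 20.8 and 24.4 FPKM at day 90, against 0.38, 0.25 and 0.42 FPKM at day 1. The log2 fold change was 6.46 ± 0.22, the highest among the tested members, with an edgeR adjusted p of 3.95e-08. Myh6 110535214 was the most abundant of the class at both ages, with 65.2, 47.0 and 63.3 FPKM at day 90 and 16.4, 14.8 and 18.1 FPKM at day 1 (log2 2.22 ± 0.18, edgeR adjusted p = 4.26e-06). The ages did not overlap for either gene.

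Myh6 100135901 had 19.6, 11.7 and 14.03 FPKM at day 90 and 6.25, 4.91 and 7.84 FPKM at day 1 (log2 1.65 ± 0.25, edgeR adjusted p = 0.000269). With scaling to the epidermal genes its log2 fold change was 0.26, which did not pass. Myh6 110499515 had 3.68, 2.63 and 3.11 FPKM at day 90 and 1.10, 1.12 and 1.03 FPKM at day 1 (log2 1.93 ± 0.17, edgeR adjusted p = 7.22e-06). Myh7b MSTRG.14335, a close relative of myosin-7, was the sole member of the class that was lower. It had 1.34, 1.00 and 1.10 FPKM at day 90 and 1.84, 2.08 and 2.38 FPKM at day 1 (log2 -0.48 ± 0.18, edgeR adjusted p = 0.0405). That call was lost with no filter (-0.44) and without replicate 2 (-0.41) or 3 (-0.45) of day 90 or replicate 2 (-0.50) or 3 (-0.36) of day 1. It was lost as well with replicate number as a further term, where 0 of 6 rows of the class were lower. MYH7 100136149, with 3.91, 1.45 and 0.83 FPKM at day 90 and 2.14, 1.37 and 2.22 FPKM at day 1, did not pass (log2 0.54 ± 0.50) and was at -0.42 without replicate 1 of day 90, where it did not pass either.

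Among the cardiac-named light chains 4 copies rose, 4 were close to 0 at day 90 and 2 did not pass the test. MYL2, a regulatory light chain, and MYL3, an essential one, are in mammals chains of the ventricle that slow skeletal fibres also use. MYL2 100136717 had 618, 394 and 436 FPKM at day 90, against 37.3, 32.1 and 38.4 FPKM at day 1 (log2 4.14 ± 0.23, edgeR adjusted p = 4.58e-07). Myl3 110530496 had 760, 435 and 452 FPKM at day 90, against 49.0, 50.5 and 53.2 FPKM at day 1 (log2 3.83 ± 0.27, edgeR adjusted p = 1.67e-06). MYL2 110533592 had 324, 207 and 247 FPKM at day 90, against 39.0, 34.5 and 36.9 FPKM at day 1 (log2 3.21 ± 0.20, edgeR adjusted p = 9.29e-07). In each of these genes every day 90 library lay above every day 1 library, and replicate 1 of day 90 was the highest. Without it their log2 fold changes were 3.85, 3.45 and 2.95. Myl3 110508567 rose less, with 106, 65.1 and 71.9 FPKM at day 90 and 33.3, 35.4 and 39.6 FPKM at day 1 (log2 1.56 ± 0.21), and with the epidermal scaling it was at 0.18 and did not pass.

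MYL2 110494139 did not change past the threshold and overlapped between ages, with 126, 51.6 and 24.2 FPKM at day 90 and 72.4, 69.0 and 95.4 FPKM at day 1. Its log2 fold change was 0.19 ± 0.50 over all libraries and -0.73 ± 0.29 without replicate 1 of day 90, where it passed (edgeR adjusted p = 0.0459). MYL4 110509818 had 27.0, 14.02 and 8.44 FPKM at day 90 and 17.5, 17.2 and 23.1 FPKM at day 1, and did not pass at 0.19 over all libraries or at -0.45 without that replicate.

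MYL7 and MYL4 are chains of the atrium in mammals. MYL7 110536312 had 0.07, 0 and 0 FPKM at day 90, against 31.7, 33.4 and 36.2 FPKM at day 1. With 1 count at day 90 and 1368 at day 1, the normalized ratio of day 1 over day 90 was 1006 (exact 95% interval 180 to 39764). MYL4 110526071 had 0.20, 0 and 0 FPKM at day 90, against 28.6, 23.8 and 36.8 FPKM at day 1, and its ratio of day 1 over day 90 was 320 (109 to 1552) from 3 and 1304 counts. Both genes were thus close to 0 in all day 90 libraries, replicate 1 included. MYL7 110525935 had no count at day 90 and 70 at day 1, at least 17.2-fold lower, and MYL4 110539156 had a log2 fold change of -3.89 ± 0.51. The cardiac heavy chain Myh6 100136150, myosin-6 by product name, had 0.48, 0.39 and 0.19 FPKM at day 90, against 7.56, 6.07 and 9.90 FPKM at day 1 (log2 -4.06 ± 0.31, edgeR adjusted p = 3.31e-06).

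Of 22 rows of a list of heart muscle markers, 9 had no count at day 90 and 0 had none at day 1. Of 13 tested rows 4 were higher and 7 lower at day 90, against 32.5% and 35.4% of all genes tested. The natriuretic peptide gene nppa, made in the atrium, had 0 FPKM in each day 90 library, against 3.74, 3.46 and 5.83 FPKM at day 1. The transcription factor gata4 was lower too, at a fitted -5.59 on the log2 scale that rests on 3 counts at day 90 and 217 at day 1. Other heart rows were higher. MYBPC3 110526520 and MYBPC3 110506650, cardiac-type myosin-binding proteins by product name, had log2 fold changes of 0.92 and 1.06 (edgeR adjusted p = 0.0024 and 0.005). Copies of the cardiac troponin T gene went both ways. TNNT2 110490462 was lower (log2 -6.70), as was TNNT2 110492717, with no count at day 90 and 285 at day 1. The copies TNNT2 110500220 and TNNT2 110490254 were higher (log2 2.36 ± 0.18 and 2.38 ± 0.19). TNNT2 110527743 and TNNT2 110500013 did not pass. The list summed to 268 to 385 FPKM at day 90 and to 166 to 188 FPKM at day 1. The part of heart tissue in the day 1 values was not tested.

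**Figure D5:**
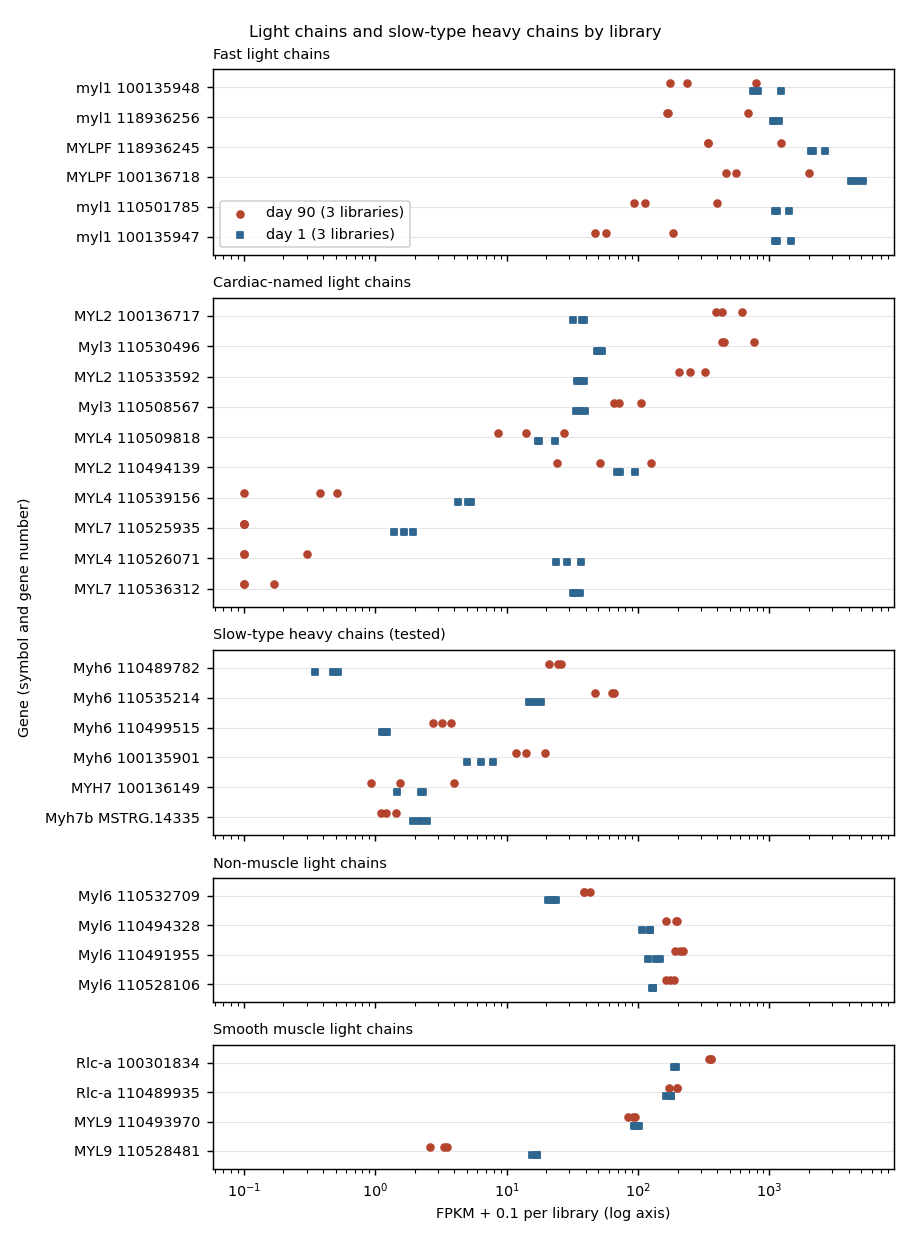
FPKM + 0.1 (log axis) of the tested light chains and slow-class heavy chains in the 3 day 90 libraries (red circles) and 3 day 1 libraries (blue squares), each panel sorted by log2 fold change. MYL2 100136717 and Myl3 110530496 lie at 394 to 760 FPKM at day 90 and at 32.1 to 53.2 FPKM at day 1, while MYL7 110536312 and MYL4 110526071 lie at or near 0 at day 90.

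Non-muscle myosin works in the contraction and adhesion of cells of many kinds. Non-muscle heavy chains summed to 136, 145 and 162 FPKM at day 90, against 109, 104 and 97.3 FPKM at day 1, with replicate 1 the lowest of day 90. MYH9, the main non-muscle heavy chain of epithelia and fibroblasts in mammals, was higher at day 90 in 4 of 4 tested copies with TMM scaling, but with scaling to the epidermal genes 110486511 and 110538472 turned to -0.52 and -0.44 on the log2 scale. MYH9 110493551 had 13.6, 15.6 and 15.9 FPKM at day 90, against 3.99, 3.47 and 2.27 FPKM at day 1 (log2 2.60 ± 0.18, edgeR adjusted p = 1.81e-06). MYH9 110485098 had 22.1, 27.3 and 34.4 FPKM at day 90, against 9.13, 8.97 and 6.76 FPKM at day 1 (log2 2.13 ± 0.16, edgeR adjusted p = 3.39e-06). Both kept a positive sign under the epidermal scaling, at 1.21 and 0.72. The most abundant copy, MYH9 110486511, had 33.3, 36.9 and 40.7 FPKM at day 90 and 28.3, 26.7 and 23.4 FPKM at day 1, without overlap (log2 0.88 ± 0.12, edgeR adjusted p = 0.000135). The rows with the symbol MYH9 summed to 109 ± 12.6 FPKM at day 90 and 57.0 ± 5.23 FPKM at day 1 (SD, n = 3 each).

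MYH10, the other widespread non-muscle heavy chain, had 2 copies that were higher and 2 that were lower among 7 tested. MYH10 110508601 had 1.15, 1.28 and 1.85 FPKM at day 90, against 3.99, 4.45 and 4.52 FPKM at day 1 (log2 -1.23 ± 0.15, edgeR adjusted p = 8.18e-05). MYH10 110534321 had 1.61, 2.25 and 2.70 FPKM at day 90, against 4.69, 4.58 and 4.78 FPKM at day 1 (log2 -0.73 ± 0.15, edgeR adjusted p = 0.00172). For both the day 90 libraries lay below those of day 1. MYH10 110538962 had 6.15, 5.83 and 7.60 FPKM at day 90 and 4.15, 4.30 and 3.37 FPKM at day 1, with a log2 fold change of 1.12 ± 0.12 that turned to -0.28 under the epidermal scaling. The other higher copy, 110486468, overlapped between ages, and its log2 fold change of 0.61 ± 0.11 turned to -0.79 under that scaling, where it passed as lower (edgeR adjusted p = 0.000579). MYH10 rows summed to 40.8 ± 2.27 FPKM at day 90 and 47.6 ± 0.83 FPKM at day 1 (SD, n = 3 each), MSTRG.21088 included, whose product name is that of enamelin.

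Myl6, the essential light chain of non-muscle and smooth muscle myosin, had 4 copies. All 4 were higher at day 90 without overlap between ages, but all 4 had a negative sign with scaling to the epidermal genes, from -0.55 to -0.17 on the log2 scale. The most abundant, Myl6 110491955, had 192, 220 and 208 FPKM at day 90 and 136, 146 and 120 FPKM at day 1 (log2 1.01 ± 0.12, edgeR adjusted p = 5.2e-05). Myl6 110532709 had 38.4, 43.0 and 38.4 FPKM at day 90 and 23.6, 22.5 and 20.7 FPKM at day 1 (log2 1.23 ± 0.10, edgeR adjusted p = 5.39e-06). Copies 110494328 and 110528106 averaged 185 and 175 FPKM at day 90, against 117 and 128 FPKM at day 1, with log2 fold changes of 1.06 ± 0.14 and 0.85 ± 0.12.

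Of 6 tested smooth muscle rows 4 were higher, 1 was lower and 1 did not pass, against 32.5% higher and 35.4% lower of all genes tested. With the epidermal scaling the 2 heavy chains gave 0 higher and 0 lower, and the 4 light chains 0 higher and 3 lower. That scaling gave 1853 higher and 24216 lower of all 29436 genes tested. MYH11, the smooth muscle heavy chain, was higher at day 90 in both tested copies, 110493498 (log2 1.08 ± 0.11) and 110485728 (log2 1.30 ± 0.14), though with scaling to the epidermal genes both turned negative, at -0.32 and -0.10. MYH11 110493498 had 12.0, 12.8 and 11.2 FPKM at day 90 and 8.16, 7.35 and 6.81 FPKM at day 1. MYH11 110485728 had 6.89, 6.78 and 7.82 FPKM at day 90 and 4.64, 3.31 and 3.27 FPKM at day 1. Of the regulatory light chains of smooth muscle and non-muscle cells, Rlc-a 100301834 had 360, 359 and 344 FPKM at day 90, against 188, 190 and 195 FPKM at day 1. It was higher with TMM scaling (log2 1.28 ± 0.12, edgeR adjusted p = 1.29e-05) and at -0.12 with the epidermal scaling. Rlc-a 110489935 had 172, 198 and 198 FPKM at day 90 and 177, 178 and 164 FPKM at day 1, which overlap. Its log2 fold change was 0.51 ± 0.11 with TMM scaling and -0.89 with the epidermal one, where it passed as lower (edgeR adjusted p = 0.000984).

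MYL9, another regulatory light chain of smooth muscle, had an abundant copy and a rare copy. MYL9 110493970 had 94.6, 90.8 and 83.7 FPKM at day 90 and 102, 96.4 and 92.7 FPKM at day 1, and did not pass (log2 0.28 ± 0.12, edgeR adjusted p = 0.0697). MYL9 110528481 had 3.24, 3.41 and 2.49 FPKM at day 90, against 17.0, 16.8 and 15.6 FPKM at day 1, and fell by 2.04 ± 0.17 on the log2 scale (edgeR adjusted p = 5.35e-06), all day 90 libraries lying below those of day 1.

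The class of 3 rows could not be told by name. The row with the symbol TRIM69 and gene number 110530600 has the product name of a striated muscle heavy chain. It had 0.03, 0.12 and 0.19 FPKM at day 90, against 4.05, 8.16 and 6.24 FPKM at day 1 (log2 -5.38 ± 0.41, edgeR adjusted p = 3.26e-06). MYH16 110498886, a heavy chain of jaw muscle in primates and carnivores, had 2.93, 3.02 and 2.66 FPKM at day 90 and 5.92, 6.05 and 2.96 FPKM at day 1, and did not pass (log2 -0.38 ± 0.24, edgeR adjusted p = 0.19). The row 110530350, without a symbol, had 0.06 to 0.09 FPKM at day 90 and 0.49 to 0.81 FPKM at day 1 and was not tested.

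Of the 27 members not tested, 2 had no count in any library. Fast heavy rows made up 18 of the 27. MYH15 MSTRG.43475, a fast heavy chain by product name, had 4.09, 0.46 and 4.77 FPKM at day 90, against 0, 0.12 and 0 FPKM at day 1. From 86 and 1 counts its ratio of day 90 over day 1 was 117 (exact 95% interval 20.4 to 4672). MYH4 MSTRG.43476 gave a ratio of 118 from 87 and 1 counts, but its day 90 replicate 2 had no count, so that the ages overlap.

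Genes that work with myosin in the sarcomere are given for lists of such genes, without the myosin rows themselves where a list held some. Of all genes tested 32.5% were higher and 35.4% lower. Of 37 tested fast muscle rows 8 were higher and 20 lower at day 90, with a median log2 fold change of -1.51. Among the higher rows, ATP2A1 110537826 (log2 1.74 ± 0.12) and TNNT3 110537957 (log2 1.48 ± 0.26) had the smallest adjusted p. The product name of TNNT3 110537957 is that of a slow skeletal troponin T. Among the lower rows, TNNI2 110527026, a troponin I of fast fibres, had the smallest adjusted p. This TNNI2 row averaged 0.107 ± 0.0945 FPKM at day 90 and 557 ± 84.0 FPKM at day 1 (SD, n = 3 each). It had 6 counts over the day 90 libraries. Of 20 slow muscle rows 9 were higher and 6 lower, with a median of 0.03, and the slow troponin I copies Tnni1 110500065 (log2 2.51 ± 0.15) and TNNI1 110500075 (log2 2.11 ± 0.18) were higher. The copy Tnni1 110494717, was lower (log2 -2.46 ± 0.27), as was TNNC1 110532000, the troponin C of slow and cardiac muscle (log2 -4.50 ± 0.42). These slow markers summed to 355 to 523 FPKM at day 90 and to 283 to 319 FPKM at day 1.

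Of 53 rows of thick and thin filament and Z-disc genes common to striated muscles 6 were higher and 36 lower. Among the 6, ACTC1 110499906, the actin of heart and developing skeletal muscle, had a log2 fold change of 1.26 ± 0.22. A list of chaperones, ubiquitin ligases and other factors of muscle protein assembly and turnover counted 1 higher and 10 lower of 11. They include unc45b MSTRG.8608, a chaperone of muscle myosin, which averaged 0.42 ± 0.13 FPKM at day 90 and 4.54 ± 0.295 FPKM at day 1 (log2 -3.03 ± 0.22). The exception was Unc45a 110522423, the form of the chaperone that all cells use (log2 0.48 ± 0.10 with TMM scaling). In FPKM, scaled to the library alone, it differed little, with 6.58, 6.77 and 6.32 at day 90 and 6.23, 6.29 and 5.89 at day 1. Muscle regulators counted 1 higher and 24 lower of 31, with SOX6 110506675, which represses slow muscle genes in fast fibres of zebrafish and mice, at -2.49 ± 0.11 on the log2 scale. Muscle energy and calcium genes counted 4 higher and 19 lower of 41. The shares over all genes tested were 32.5% higher and 35.4% lower.

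A list of kinases, phosphatases and other regulators of conventional myosin counted 22 higher and 5 lower of 35, MYL9 left out, with a median of 0.45. All genes tested gave 32.5% higher and 35.4% lower. The list was drawn up with light chain kinases of skeletal and heart muscle in it. Mylk 110486267, a smooth muscle light chain kinase by product name, had a log2 fold change of 1.45 ± 0.13. PPP1CB 110531833, the catalytic subunit of the myosin phosphatase, was at 1.22 ± 0.14. Fold changes in this paragraph are those with TMM scaling, and values of these rows with the epidermal scaling are not given. That scaling moved the median of all genes from -0.03 to -1.44. Of 21 tested rows of a smooth muscle list 5 were higher and 14 lower, with TAGLN 110503678, the actin-binding protein transgelin, at 1.496 ± 0.118. The lower rows with the smallest adjusted p, Des 110519050 and des 110529701, had no count at day 90 and 4782 and 4481 counts at day 1, and their product name is that of another intermediate filament protein.

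The authors' deposited table gave its own log2 fold change and FDR. By an FDR under 0.05 there, 37 members were higher and 40 were lower at day 90. How many of all rows passed there was not counted, so these numbers alone set no myosin apart. With edgeR here 67.9% of all genes tested passed. Both sets of calls rest on the same 6 libraries and are not independent of each other. Of the 32 tested members called higher here 30 passed as higher in the authors' deposited table, and of the 38 called lower 35 passed as lower. Of the 16 that did not pass here 1 passed in the authors' deposited table.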

How the data were processed

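The counts and the FPKM values per gene and library were deposited by the authors, per the file headers; counts are whole numbers. Per the submitters' processing notes TopHat2 2.1.1 and Bowtie2 2.2.8 were used, in steps that are not stated. The counting tool, the build, the strand setting and the treatment of reads with several matches are likewise not stated in the sources used, so antisense or overlapping genes cannot be told apart. The authors also deposited a log2 fold change with an FDR (an adjusted p-value), whose test is not stated. Here edgeR 4.0.16 (R 4.3.3) was run on the deposited counts of 29436 genes with FPKM of 1 or higher in 3 or more of the 6 libraries, with TMM factors, age as the sole term, two-sided quasi-likelihood tests and Benjamini-Hochberg adjustment over all of them. Standard errors are the log2 fold change over the square root of F. The script was tested on simulated counts. DESeq2 1.42.0 and limma 3.58.1 on log2(FPKM + 1) were alternatives. Where an age had no count, 3 counts over the age is the floor; ratios from 1 to 3 counts have exact 95% binomial intervals. Both cover counting error only, since reads are not independent molecules. Set against the total of 1 library, 3 counts are between 1.58e-05% and 1.86e-05%. The floor is spread over all libraries of an age together, so its share of their counts is smaller.

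Members and gene lists were chosen with earlier results of these data known. In each class the text names the up to 4 members of highest mean FPKM, the up to 3 of smallest adjusted p in each direction, the up to 2 of largest change against the class median, and members with no count at 1 age and at least 5 FPKM at the other; of other lists, the up to 2 with the smallest adjusted p in each direction could be named. Other members named were chosen after their values were seen. So were nppa, the MYBPC3 copies and the further TNNT2 copies of the heart list, which these rules do not select. Some list rows matched by symbol have a product name of another protein. A comparison of the member proteins was not run.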

Additional observations from a re-analysis of the deposited data

How the results depend on the processing

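Over all genes the median log2 fold change, -0.03 with TMM, became -0.43 by library size alone, -0.33 and -0.41 with limma on log2(FPKM + 1) and on log2(FPKM + 0.1), and -1.44 with scaling to the epidermal genes. Myosin rows higher and lower at day 90 numbered 32 and 38 with TMM, 27 and 41 by library size alone, 30 and 36 with DESeq2, 25 and 41 with either limma fit, and 13 and 55 with the epidermal scaling, where 5 rows went over to lower, MYH10 110486468 (-0.79) among them. All genes counted 9565 higher and 10417 lower with TMM, 5941 and 14887 with library size alone, and 9074 and 10377 with DESeq2. The limma fits gave 6084 and 14949 on log2(FPKM + 1), and 5989 and 14792 on log2(FPKM + 0.1). With FPKM of at least 5, 4706 were higher and 5036 lower. The epidermal scaling gave 1853 higher and 24216 lower. With that scaling the sign turned for MYH9 110486511 (-0.52), Myl6 110528106 (-0.55), 110491955 (-0.39), 110494328 (-0.33) and 110532709 (-0.17), MYH11 110493498 (-0.32) and 110485728 (-0.10), and Rlc-a 110489935 (-0.89) and 100301834 (-0.12). MYL9 110493970 was at 0.28 with TMM and turned to -0.13 with library size alone, -0.11 and -0.12 with limma and -1.12 with the epidermal scaling. MYL2 110494139 was at 0.19 and turned to -0.24, to -0.52 and -0.53 and to -1.14 in the same fits, and lay between -0.73 and 0.57 with 1 library left out, the lowest without replicate 1 of day 90. The cause was not tested. By library size alone, MYH4 110519048, 110513509 and 110513778, MYH10 110486468 and Rlc-a 110489935 no longer passed as higher. Leaving out each library in turn gave 29 to 33 myosin rows higher and 35 to 44 lower, against 8428 to 9242 and 9434 to 10714 of all genes. No filter gave 41 and 42 myosin rows, against 11552 and 14221 of all genes. MYLPF 118936245 no longer passed with DESeq2, or without replicate 2 or 3 of day 90 or replicate 3 of day 1. Class shares of counts in place of FPKM were 38.0% fast heavy at day 90 and 88.1% at day 1.

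Deviations of libraries with the same replicate number correlated at -0.078, 0.0055 and -0.105, and those of libraries with different numbers at -0.065 to 0.105. With 3 libraries per age, these values cannot show whether the numbers pair the samples. With the replicate block 30 myosin rows were higher and 38 lower, against 8764 and 9791 of all genes, and MYL2 110494139 was at -0.13.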
